A study of Homo sapiens with 4 samples.

Results

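The genes described here are ABCC2 and 8 related multidrug efflux pumps, ABCC1, ABCC3, ABCC4, ABCC5, ABCC6, ABCC10, ABCB1 and ABCG2. They were measured on 4 Affymetrix arrays of HCT116, an established human colon cancer cell line. On 2 arrays the RNA came from cells given a PRSS8 expression plasmid by transient transfection, and on 2 from cells given the empty vector. The product of PRSS8 is prostasin, a protease of epithelial cell membranes. Each group holds a replicate 1 and a replicate 2, described in the labels as biological, and the line and its medium were the same throughout. Members were taken by gene symbol among probe sets that the platform annotation gives to exactly 1 symbol, with the probe set of highest mean kept where a gene had several. This found 8 of the 9 genes, out of 22411 genes in all, each through a single probe set. No probe set was listed for ABCC6, the liver and kidney member of the family whose loss causes pseudoxanthoma elasticum, and it is not analysed here. ABCC2 was selected on its difference between PRSS8 and control on these arrays, already known to be among the largest negative ones, and its relatives were added by name. The differences below are therefore a description and carry no test.

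These pumps are ATP-binding cassette (ABC) transporters, membrane proteins that spend ATP to move compounds out of the cell. ABCC2 (MRP2) sits in the apical membrane of hepatocytes, enterocytes and kidney tubule cells and exports glutathione, glucuronide and sulfate conjugates of bilirubin, bile salts and drugs. In the intestine it returns conjugates to the gut lumen, beside ABCB1 (P-glycoprotein) and ABCG2 (BCRP), while ABCC1 and ABCC3 export to the other, basolateral side.

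The levels are log2 values, so that a difference of 1 is a doubling in signal, and a level of one probe set cannot be set against that of another. The median over all genes was 4.14 and 4.26 on the PRSS8 arrays (replicates 1 and 2) and 4.15 and 4.31 on the control arrays. Detection above background could not be computed, so a level near these medians may hold little specific signal. PRSS8 stood at 18.55 and 18.07 on the PRSS8 arrays and at 10.45 and 11.18 on the control arrays, in the direction that the labels give. Arrays of the same number lay closer to each other (Pearson's r across genes 0.996 for replicate 1 and 0.989 for replicate 2) than arrays of the same group (0.934 for PRSS8 and 0.930 for control). Of 7 colon epithelial markers, EPCAM, KRT8, KRT18, KRT19 and CDH1 lay well above the medians on all 4 arrays (7.95 to 15.05), whereas CDX2 and VIL1 lay between 3.41 and 4.03. Of 14 measured markers of hepatocytes, fibroblasts, leukocytes and endothelium, only CD68 had a mean level at or above the median of all genes. The fibroblast marker DCN, with a lower mean, stood at 5.13 on control replicate 2 and at 3.34 to 3.85 on the other arrays. CD68, a lysosomal protein used as a macrophage marker, stood at 8.47 and 9.44 on the PRSS8 arrays against 7.23 and 8.11 on the control arrays, and the leukocyte marker PTPRC at 3.21 and 3.66 against 3.33 and 3.74. Every array was of the cultured line HCT116, and a part of other cells in the results was not tested. In bulk RNA, fewer cells expressing a gene and less RNA per cell cannot be told apart.

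ABCC2 was lower with PRSS8, and it was the pump with the widest difference of the 8. Its level was 8.03 and 7.28 on the PRSS8 arrays of replicates 1 and 2, against 10.89 and 8.08 on the control arrays of the same numbers. Both PRSS8 arrays therefore lay below both control arrays, but the higher PRSS8 array and the lower control array were only 0.05 apart. The level averaged 7.65 ± 0.53 in PRSS8 cells and 9.48 ± 1.99 in control cells (log2, SD, n = 2 each), a difference of −1.83, or 3.56-fold lower. Within replicate 1 the difference was −2.86 (7.25-fold lower), and within replicate 2 it was −0.80 (1.74-fold lower). The difference thus had the same direction in both numbers and was wider in replicate 1 (replicate 1 minus replicate 2, −2.06). The spread of the 2 control arrays, 2.81 log2 units, exceeded the mean difference between the groups. Control replicate 1 was the highest array, and the difference was −0.42 without it and −3.24 without control replicate 2.

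Set among all genes, ABCC2 had the most negative difference of the 22411 within replicate 1. Within replicate 2, 265 genes including ABCC2 were as low or lower, and by the mean of both numbers 5 genes including ABCC2 were. It follows from replicate 1 alone that no other gene was as low as ABCC2 in both numbers. Among the 1732 genes within 1 log2 unit of its mean level, 12.8% were lower within both numbers. Because ABCC2 was picked for this contrast, these positions describe it and support nothing further.

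**Figure D1:**
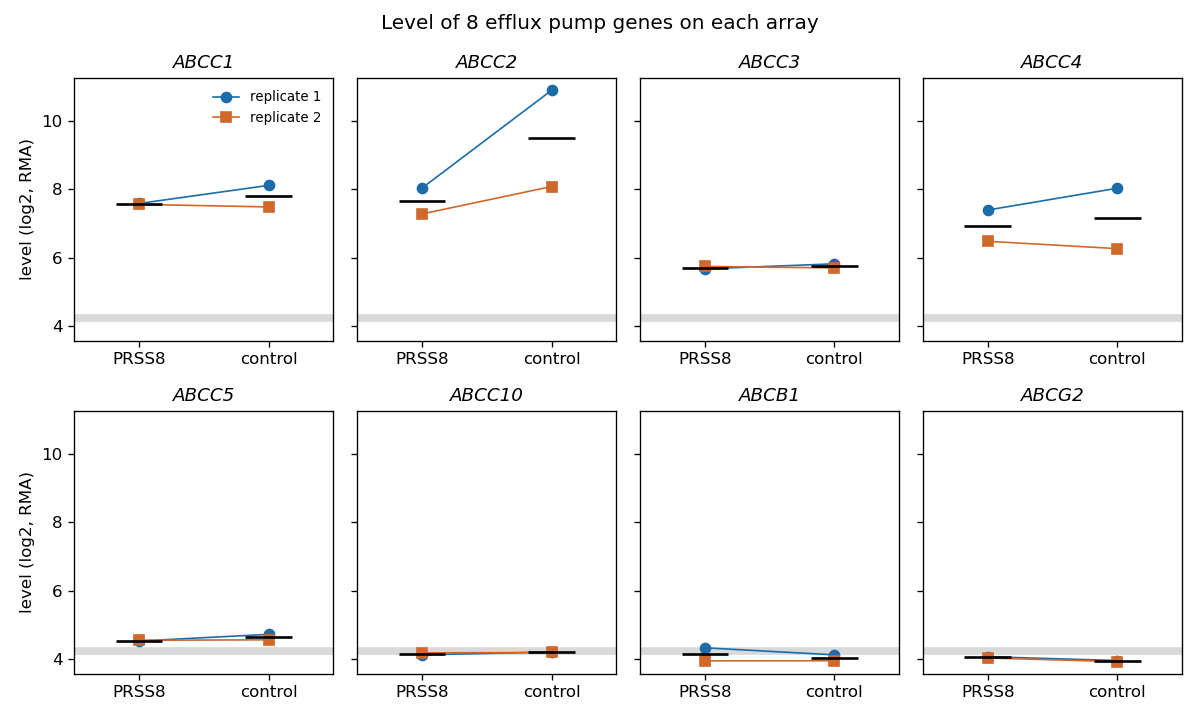
Level of each pump (log2, vertical axis) on the PRSS8 and control arrays, with circles for replicate 1, squares for replicate 2, lines joining arrays of one number, black bars for group means and a grey band for the 4 array medians over all genes (4.14 to 4.31). ABCC2 is lower in PRSS8 cells in both numbers, at 8.03 against 10.89 in replicate 1 and at 7.28 against 8.08 in replicate 2, while ABCC10, ABCB1 and ABCG2 lie at or near the band.

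The other apical pumps stood near the array medians. ABCB1, which expels hydrophobic drugs such as anthracyclines and taxanes, stood at 4.33 and 3.95 on the PRSS8 arrays against 4.12 and 3.95 on the control arrays. The PRSS8 arrays were the highest and the lowest of the 4, so the groups overlapped. Its differences were 0.21 within replicate 1 and −0.002 within replicate 2, where quantile normalization, median centring and cyclic loess gave 0.07, 0.04 and 0.04.

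ABCG2, a transporter of urate and of drugs such as topotecan that works as a dimer, stood at 4.07 and 4.03 on the PRSS8 arrays against 3.96 and 3.92 on the control arrays. Here both PRSS8 arrays were above both control arrays, with a gap of 0.07. The differences were 0.11 within replicate 1 and 0.11 within replicate 2, or 1.08-fold higher in the mean, and the sign was positive in both numbers under each of the 3 further normalizations, but the groups overlapped under all 3. This is a small difference in a gene below the median level of all genes.

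The differences of the basolateral exporters were smaller in size than that of ABCC2 and changed sign between the replicate numbers. ABCC1 (MRP1), which exports glutathione conjugates and cysteinyl leukotrienes, stood at 7.58 and 7.56 on the PRSS8 arrays against 8.11 and 7.48 on the control arrays. Control replicate 1 was again the highest array and the other 3 lay within 0.10 of each other. Its difference was −0.53 within replicate 1 and 0.07 within replicate 2, where the sign turned to −0.18 after quantile normalization and −0.05 after cyclic loess. ABCC3 (MRP3), an exporter of glucuronides and bile salts known to be raised in the liver when ABCC2 is lost, stood at 5.67 and 5.74 on the PRSS8 arrays against 5.82 and 5.70 on the control arrays. The groups overlapped, and the difference was −0.15 within replicate 1 and 0.04 within replicate 2 (−0.07 after quantile normalization and −0.02 after cyclic loess). The mean ABCC3 difference of −0.05 was smaller than the SD of the 2 control arrays, 0.08.

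ABCC4 and ABCC5 export cyclic nucleotides and nucleotide analogues. ABCC4 (MRP4), which also carries prostaglandins, stood at 7.39 and 6.48 on the PRSS8 arrays against 8.03 and 6.26 on the control arrays. Its arrays ordered by replicate number before group: replicate 2 lay below replicate 1 by 0.91 in PRSS8 cells and by 1.77 in control cells. The ABCC4 difference was −0.64 within replicate 1 and 0.21 within replicate 2, so the 2 numbers disagreed in sign. Its mean difference of −0.21 was −1.09 without control replicate 2 and 0.67 without control replicate 1.

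ABCC5 (MRP5) stood at 4.53 and 4.55 on the PRSS8 arrays against 4.72 and 4.56 on the control arrays. The PRSS8 arrays lay below the control arrays by a gap of 0.01, with differences of −0.20 within replicate 1 and −0.01 within replicate 2; the second turned to 0.02 after quantile normalization and 0.03 after median centring. ABCC10 (MRP7), a transporter of taxanes and other lipophilic drugs, stood at 4.12 and 4.18 on the PRSS8 arrays against 4.20 and 4.19 on the control arrays. These groups too were 0.01 apart, with differences of −0.08 and −0.01, the second of which was 0.05, 0.03 and 0.02 after quantile normalization, median centring and cyclic loess.

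Counted together, 3 of the 8 pumps (ABCC2, ABCC5 and ABCC10) were lower within both replicate numbers, where 24.5% of all genes were, and 1 (ABCG2) was higher within both, where 26% of all genes were. The same 3 had both PRSS8 arrays below both control arrays (5.56% of all genes), and ABCG2 had both above (5.53% of all genes). These separations held on the deposited scale: ABCC5, ABCC10 and ABCG2 overlapped under all 3 further normalizations, and pumps lower without overlap numbered 1 after quantile normalization (ABCC2), 0 after median centring and 2 after cyclic loess (ABCC1 and ABCC2). After median centring only ABCC2 was lower within both numbers. Within replicate 1, 6 of 8 pumps were lower (50.4% of all genes), and within replicate 2, 4 of 8 were (48.0% of all genes). The median difference over the 8 pumps was −0.17 within replicate 1 and 0.02 within replicate 2, beside 0.00 and 0.01 over all genes. Apart from ABCC2, the mean differences were 0.05 to 0.23 in size. The rule used this contrast, so nothing is read from these counts.

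**Figure D2:**
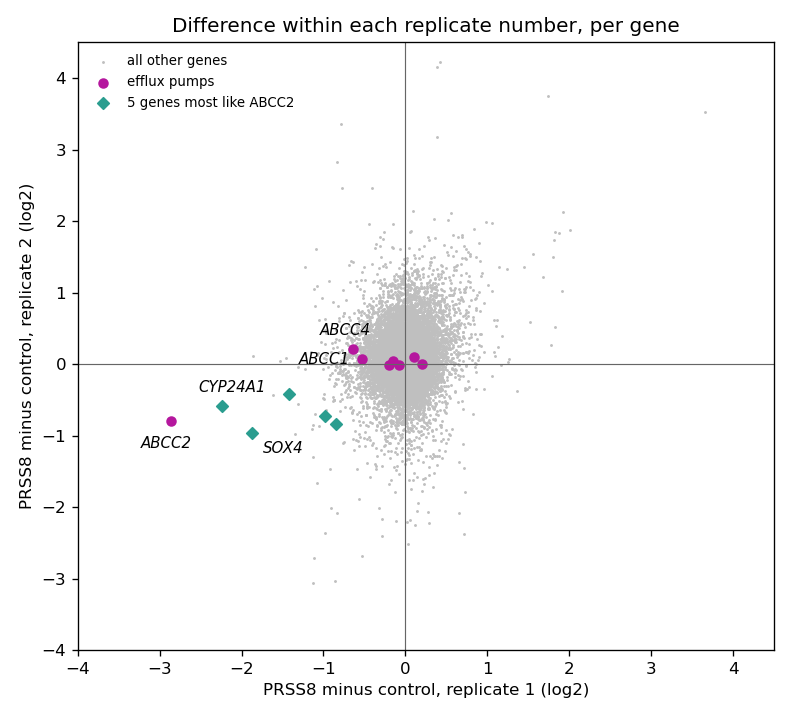
Difference between PRSS8 and control for each gene (log2) within replicate 1 (horizontal axis) and replicate 2 (vertical axis), with the 8 pumps, the 5 genes most like ABCC2 and all other genes except PRSS8, which lies outside the axes at 8.10 and 6.89. ABCC2 is the leftmost point at −2.86 and −0.80, while the other 7 pumps lie between −0.64 and 0.21 on both axes.

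The genes with the array pattern most like that of ABCC2 were taken by Euclidean distance over the 4 arrays, each gene minus its own mean, among 11205 genes at or above the median level. The nearest was SOX4, a transcription factor of intestinal progenitors (distance 0.71), which stood at 7.91 and 6.54 on the PRSS8 arrays against 9.77 and 7.51 on the control arrays. CYP24A1, the hydroxylase that inactivates vitamin D, came next (distance 1.03), at 9.10 and 9.07 on the PRSS8 arrays against 11.34 and 9.65 on the control arrays. Both share with ABCC2 the highest level on control replicate 1 and a wider difference in replicate 1, −1.87 for SOX4 and −2.24 for CYP24A1, than in replicate 2, −0.97 and −0.58. In CYP24A1 both PRSS8 arrays lay below both control arrays, whereas in SOX4 PRSS8 replicate 1 lay above control replicate 2. PERP, a desmosome component and p53 target, followed at a distance of 1.05 (differences −1.43 and −0.41), then GLG1, a Golgi glycoprotein, at 1.41 (−0.99 and −0.73) and LOC100190986 at 1.42 (−0.85 and −0.84). In PERP, GLG1 and LOC100190986 too, PRSS8 replicate 1 lay above control replicate 2 (7.25 against 6.39, 12.78 against 12.35 and 7.24 against 6.42). Distances come from the same 4 arrays that chose ABCC2, and they count the difference between replicate numbers as well as that between groups.

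**Figure D3:**
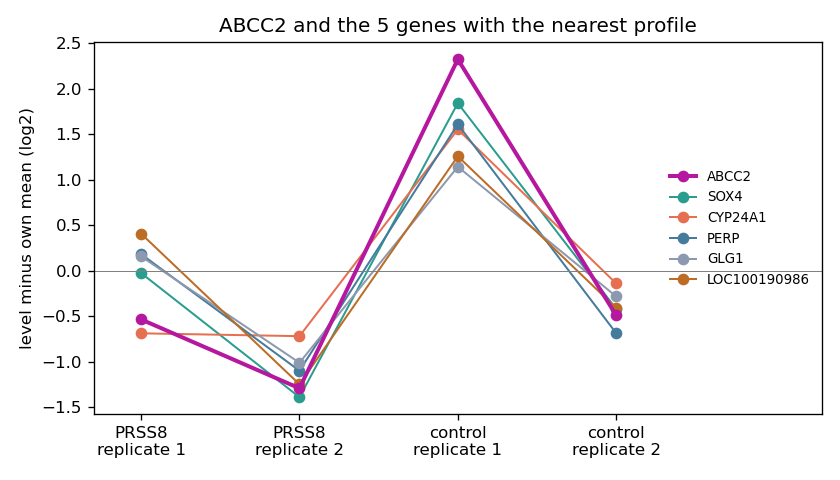
Level minus the gene's own mean over the 4 arrays (log2, vertical axis) for ABCC2 and the 5 genes nearest to it, on each array. All 6 genes peak on control replicate 1 and have their lowest level on PRSS8 replicate 2.

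The sequence around the start of a gene is shown for ABCC2, ABCC4 and SOX4. ABCC4 is a pump whose arrays ordered by replicate number before group. SOX4 was the gene nearest to ABCC2 in pattern, and its arrays also ordered by replicate number before group. RefSeq windows on GRCh38.p14 run from 250 bases before to 50 bases after the start, at chr10:99782390-99782689 (plus strand) for ABCC2, chr13:95301402-95301701 (minus strand) for ABCC4 and chr6:21593501-21593800 (plus strand) for SOX4. Capitals mark the motif matches listed after the sequences.
ABCC2: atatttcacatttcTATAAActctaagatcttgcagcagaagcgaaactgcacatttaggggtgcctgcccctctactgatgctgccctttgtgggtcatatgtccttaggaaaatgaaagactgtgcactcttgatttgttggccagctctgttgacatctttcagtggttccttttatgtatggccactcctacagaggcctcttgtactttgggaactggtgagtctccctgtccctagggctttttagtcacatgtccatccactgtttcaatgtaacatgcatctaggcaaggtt
ABCC4: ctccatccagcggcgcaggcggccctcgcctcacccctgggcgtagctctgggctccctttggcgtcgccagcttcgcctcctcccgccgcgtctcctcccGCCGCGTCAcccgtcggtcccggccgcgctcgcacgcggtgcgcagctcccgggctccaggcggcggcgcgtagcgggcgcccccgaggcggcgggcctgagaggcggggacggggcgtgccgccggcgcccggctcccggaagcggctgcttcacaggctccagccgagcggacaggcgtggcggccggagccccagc
SOX4: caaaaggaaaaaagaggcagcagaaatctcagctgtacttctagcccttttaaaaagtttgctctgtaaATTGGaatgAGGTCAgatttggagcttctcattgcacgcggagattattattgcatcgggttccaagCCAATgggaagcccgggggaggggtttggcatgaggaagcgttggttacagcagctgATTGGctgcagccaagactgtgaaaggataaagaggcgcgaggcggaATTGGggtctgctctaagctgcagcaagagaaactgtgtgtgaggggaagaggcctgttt

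The ABCC2 window was 45.0% G and C with 1 CpG, against a median of 58.7% and 14 CpG over 35116 windows, and 20.6% of windows had a lower G and C content. The ABCC4 window was 79.7% G and C with 47 CpG, and that of SOX4 49.3% with 8 CpG. Windows were listed for 7 of the 9 pumps, several of them with more than 1, and their G and C content ranged from 37.7% to 79.7%.

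Motifs were searched on both strands as fixed letters. Of core promoter boxes, TATAAA was searched for the box that binds TBP. The box bound by NF-Y was searched as CCAAT. For SP1 the letters were GGGCGG, and for the E-box they were CACGTG. The core of the antioxidant response element, which NRF2 binds, was searched as TGACNNNGC. Nuclear receptor half-sites were searched as AGGTCA and, in a variant, AGTTCA. The cAMP response element was searched as TGACGTCA, and the ER stress response element (which includes an NF-Y box) was searched as well. In the ABCC2 window the single match was TATAAA at bases 15 to 20, which 11.5% of windows hold somewhere. Counted from the start of the gene, this match lies at −236 to −231. The ABCC4 window held TGACNNNGC on the opposite strand at bases 102 to 110 (13.3% of windows). SOX4 had 4 CCAAT matches (34.6% of windows hold at least 1) and AGGTCA at bases 79 to 84 (13.8%). A match is a description of letters, and the absence of a match says only that these letters are not in this window.

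Genes that work with the pumps were described from 6 lists. In limma over all 22411 genes, an adjusted p below the threshold of 0.05 was reached by 0 genes upward (0%) and 0 downward (0%), where 17 higher and 25 lower genes had an unadjusted p under 0.05. No measured gene of the 6 lists was called, and 0 of them had an unadjusted p under 0.05 in either direction. PRSS8 itself, 7.49 higher in the mean, was not called either. These zeros therefore cannot show that the listed genes were unchanged. Without control replicate 1, limma called 3 genes higher and 59 lower, and without control replicate 2 it called 5 higher and 3 lower. The values below are therefore given by array, and each list's median stands beside the median difference of all genes, 0.0006. Over the 11206 genes at or above the median level, the median difference was 0.037. Lists of mostly brighter genes therefore have another background than all genes. Shares higher or lower within both numbers were not computed over these brighter genes. The SE below come from the fit without a replicate block, so the difference between replicate numbers enters them. They do not measure the spread of the 2 within-number differences.

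Among 37 other ABC transporters, 7 were higher and 14 lower within both numbers (26% and 24.5% of all genes), with a median difference of −0.03 that was −0.01 to 0.002 under further normalizations. Of the 37, 13 were at or above the median level. ABCA2, a lipid transporter of lysosomes, stood at 5.87 and 5.96 on the PRSS8 arrays against 6.15 and 6.36 on the control arrays, without overlap (mean difference −0.34, SE 0.32). ABCD3, a peroxisomal fatty acid transporter, differed by −0.22 (SE 0.93). ABCE1 and ABCF2, ABC proteins that act on ribosomes or in the cytosol and transport nothing, differed by 0.28 (SE 1.40) and 0.26 (SE 0.80). None of the 37 had a mean difference below −0.34.

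A further list held solute carriers, most of which bring compounds such as drugs, bile salts, folates or nucleosides into the cell, although SLC47A1, SLC47A2, SLC51A and SLC51B can carry them out. Of 30 measured, 4 were higher and 6 lower within both numbers (26% and 24.5% of all genes), with a median difference of 0.001. SLCO1B3, an organic anion transporter of liver and colon cancers, stood at 5.71 and 4.81 on the PRSS8 arrays against 5.29 and 4.45 on the control arrays (mean difference 0.39, SE 0.45). In SLC46A1, the proton-coupled folate transporter, the levels were 4.51 and 4.64 on the PRSS8 arrays against 5.01 and 4.95 on the control arrays, without overlap (mean difference −0.41, SE 0.18, limma adjusted p = 1). SLC29A2, a nucleoside transporter, differed by −0.19 (SE 0.16) and the peptide transporter SLC15A1 by 0.02 (SE 0.16).

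Conjugation and glutathione enzymes make the conjugates that ABCC2 exports. Of 33 measured, 8 were higher and 8 lower within both numbers (26% and 24.5% of all genes), with a median difference of −0.004. TPMT, which methylates thiopurines, differed by 0.73 (SE 1.14) and UGDH, which makes the UDP-glucuronate used for glucuronides, by 0.71 (SE 0.97). UGDH stood at 9.60 and 8.03 on the PRSS8 arrays against 8.97 and 7.24 on the control arrays. It was therefore higher within both numbers while the groups overlapped, and the difference between replicate numbers enters its SE. The only enzyme of the list that met the rule for naming in the other direction was the sulfotransferase SULT1A1, at −0.09 (SE 0.26). UGT1A genes, which glucuronidate bilirubin and SN-38, had no probe set with a single symbol under the names listed and are not analysed here.

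Factors known to regulate these pumps were measured for 38 genes. Of them 15 were higher and 7 lower within both numbers (26% and 24.5% of all genes), with a median difference of 0.03. Among the 38, 31 were at or above the median level of all genes. TCF7L2, a WNT pathway transcription factor, stood at 8.95 and 8.22 on the PRSS8 arrays against 9.61 and 8.90 on the control arrays. It differed by −0.65 within replicate 1 and −0.68 within replicate 2 (mean −0.67, SE 0.73). This SE takes in the difference between replicate numbers and does not measure the spread of the 2 within-number differences. FOXO3, a forkhead factor, differed by −0.24 (SE 0.43). ATF3, a stress-induced factor, stood at 7.29 and 7.59 on the PRSS8 arrays against 7.03 and 6.98 on the control arrays, without overlap (mean difference 0.43, SE 0.47), and NFYB, a subunit of the CCAAT-binding factor, differed by 0.36 (SE 0.71). NFE2L2 (NRF2) was named after its values were seen because it is a known activator of ABCC2. It differed by 0.17 within replicate 1 and 0.26 within replicate 2 (SE of the mean difference 1.40). Its levels were 9.72 and 6.99 on the PRSS8 arrays against 9.55 and 6.73 on the control arrays. The receptors NR1I2 (PXR) and NR1H4 (FXR), known regulators of ABCC2, had no single-symbol probe set and are not analysed here.

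Of 25 measured targets that share these regulators with the pumps, 10 were higher and 5 lower within both numbers. The shares of all genes were 26% and 24.5%. The median difference was 0.08. The median was −0.001 within replicate 1 and 0.17 within replicate 2. Among the 25, 14 were at or above the median level of all genes. SLC7A11, the cystine transporter that feeds glutathione synthesis, differed by 1.18 (SE 2.21), with 0.86 within replicate 1 and 1.50 within replicate 2. The difference between replicate numbers enters this SE. Thioredoxin reductase TXNRD1 differed by 0.46 (SE 0.85). CYP1B1, a target of the aryl hydrocarbon receptor, differed by −0.15 (SE 0.21). Among 24 genes of membrane anchors, vesicle traffic, caveolae and kinases, 8 were higher and 6 lower within both numbers, with a median difference of 0.02 (−0.06 after quantile normalization). CAV1, the caveolae protein, differed by 0.51 (SE 0.89), the vesicle GTPase RAB10 by 0.39 (SE 1.58), the scaffold NHERF2 by −0.13 (SE 0.30) and the polarity kinase STK11 by −0.12 (SE 0.31). Radixin (RDX), which links ABCC2 to actin in hepatocytes and was named after its values were seen, stood at 10.81 and 7.62 on the PRSS8 arrays against 10.77 and 7.68 on the control arrays.

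**Figure D4:**
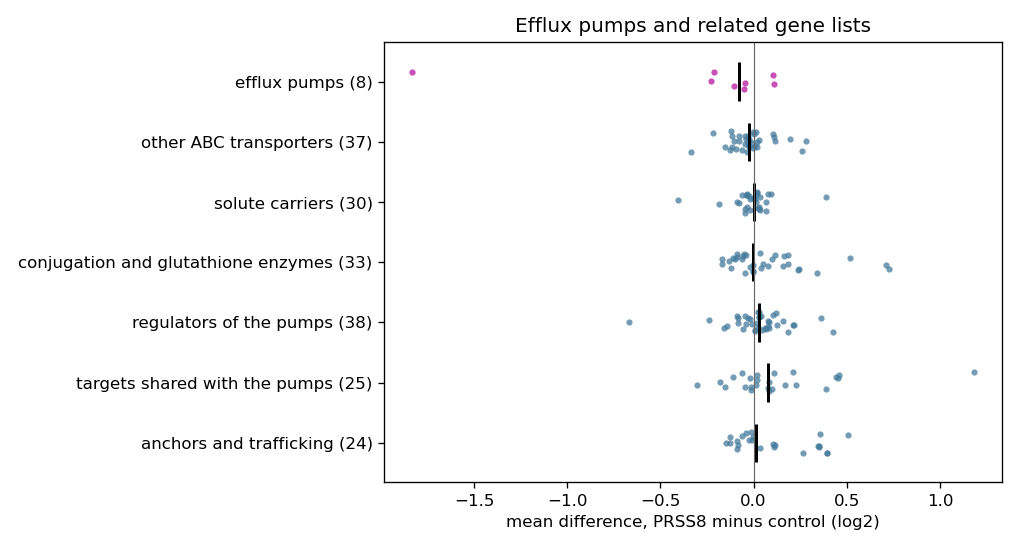
Mean difference between PRSS8 and control (log2, horizontal axis) for each measured gene of the 8 pumps and of the 6 related lists, with the number of genes in brackets and a black bar at each list's median. ABCC2, at −1.83, lies apart from the other points, and the medians run between −0.08 and 0.08.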

How the data were processed

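Gene levels of 4 HCT116 cultures, 2 with PRSS8 and 2 with vector, were measured on Affymetrix whole-transcript arrays. The deposited values are log2 levels per probe set, which the authors produced by RMA in Affymetrix Expression Console 1.3.1 (per the submitters' processing notes). The genome build, and whether 1 normalization covered the 4 arrays, are not given in the sources used here. Scanner files were not used, and precision is limited by the number of arrays. From 70523 probe sets, 2995 of controls and single exons were removed, and those with 1 annotated symbol were named, with symbols updated through Entrez identifiers or unique older symbols. The probe set of highest mean stood for a gene, which gave 22411 genes.

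The 2 groups were compared by limma 3.58.1 under R 4.3.3 (intensity trend, two-sided, Benjamini-Hochberg over all genes, threshold 0.05, 2 residual degrees of freedom). The fit was checked on simulated arrays with independent noise and no difference between replicate numbers. That check does not show what the fit can detect on these arrays. Errors are SD (n = 2) or the moderated SE. The p-values and SE rest on the spread between these samples, moderated across genes, and reach no further. They come from the fit without a replicate block, except where the block is named, so the difference between replicate numbers enters them. Members and lists were chosen with earlier results of these data known. All pumps are named, and in each list up to 2 genes per direction with the largest mean difference, one sign in both numbers and a level at or above the median, plus the 5 genes nearest to ABCC2. Other genes were named after their values were seen. The motif set and the counts of non-overlap under other normalizations were chosen after seeing the data. Alternatives were the variance model, a replicate block, 3 further normalizations, averaged probe sets per gene, a filter on dim genes and leaving out each array.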

Additional observations from a re-analysis of the deposited data

How the results depend on the processing

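ABCC2 was lower with PRSS8 under the further normalizations and with each array left out, at −2.02 after quantile normalization, −1.80 after median centring, −1.90 after cyclic loess, and −3.24 to −0.42 with 1 array removed. After median centring its groups overlapped (gap −0.12), whereas after quantile normalization and cyclic loess they were 0.96 and 0.56 apart. The number of pumps lower within both replicate numbers was 3, and it was 1 after median centring (ABCC2), 3 after quantile normalization (ABCC1, ABCC2 and ABCC3) and 4 after cyclic loess (ABCC1, ABCC2, ABCC3 and ABCC5). Genes called by limma numbered 0 in each direction on the 4 arrays and under the alternatives that kept all of them, and 0 to 5 higher and 0 to 59 lower with an array left out, where the lone array of a group is assumed to vary like the other group and the difference between replicate numbers enters; the cause was not tested. With the replicate number as a block, ABCC2 differed by −1.83 as before, 0 genes were called higher and 0 lower (smallest adjusted p = 0.0765), and 647 higher and 527 lower genes had an unadjusted p under 0.05, against 17 and 25 without the block. Without the intensity trend those were 43 and 19. Deviations from the group means correlated between the groups at Pearson's r = 0.91 and Spearman's rho = 0.75 across genes. With 2 numbers this is a hint, from the data and not from the design, of a difference shared by arrays of one number. The labels do not say whether a number marks a shared culture or day. As each pump had 1 probe set, taking the mean of probe sets left all 8 pump values as they were. Background correction and detection could not be varied, which limits what the low signals of ABCC10, ABCB1 and ABCG2 can show.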
